A study of Mus musculus with 6 samples.

Results

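The collagen genes of the mouse were examined in the left ventricle of mice whose cardiomyocytes carry extra glucose transporter (Glut1-TG) and of wild-type (WT) controls. Members were all genes on the array whose symbol is Col, a number, the letter a and a number, read from probe sets annotated with a single symbol, and this rule found 42 genes among 18193. They comprised 11 fibrillar collagens, the 6 chains of type IV (the basement membrane collagens) and 25 other collagens. Where a gene had several probe sets, the probe set of highest mean log2 signal was used.

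Each group held 3 arrays from male FVB mice, 11 to 12 weeks old and kept on standard chow. The WT mice are labelled as wild type. Glut1-TG mice expressed human Glut1 from the alpha-myosin heavy chain promoter, which is active in cardiomyocytes, whereas most cardiac collagen is known to come from fibroblasts. RNA came from whole left ventricle, in which fewer cells of a type and less RNA per cell cannot be told apart. The labels number the arrays of a group without naming the animals, so p-values measure the spread between these arrays. The comparison asks whether collagen mRNA differs between Glut1-TG and WT hearts.

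Collagens are secreted proteins of 3 chains wound around each other. Fibrillar collagens, above all types I and III, form the cable-like fibres of the cardiac interstitium and are made mainly by fibroblasts. Type IV collagen forms the sheet-like network of the basement membrane that surrounds cardiomyocytes and capillaries. The other collagens sit on fibrils, form beaded filaments or short networks, or span the cell membrane. Chains are hydroxylated and folded in the endoplasmic reticulum, trimmed after secretion and then cross-linked, and they are removed by matrix metalloproteinases and cathepsins.

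No collagen gene differed between Glut1-TG and WT hearts by limma at an adjusted p under 0.05. Of the 42 genes, 30 lay above the filter on low signal (a mean signal of 115, which leaves out 40% of probe sets) and were tested, and 0 rose and 0 fell. Among all 13178 genes tested, 0.258% rose and 0.599% fell. In either direction the share was 0.857%. At an unadjusted limma p under 0.05, 3 collagens were higher and 0 were lower, where 5.47% of all genes were higher and 5.81% were lower (11.3% in either direction). After Benjamini-Hochberg adjustment the methods' t-test called 0 collagens and 0.00759% of all genes, all of that share higher. The thresholds used in the study, which combine a minimum fold change with an unadjusted p, gave 2 collagens higher and 0 lower, against 3.21% higher, 2.65% lower and 5.86% in either direction among all genes.

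The promoters of 4 chains are shown because these chains belong to the main collagens of this tissue: Col1a2 of type I and Col3a1 of type III in the interstitial fibres, and Col4a1 and Col4a2, which form a trimer together. Each window runs from 250 bases before to 50 bases after the annotated start (RefSeq, GRCm38.p6), and 33 of the 42 genes were matched to 36 windows. Capitals in Col1a2 and Col3a1 mark 3 promoter motifs on either strand (the CCAAT box, the GC box with the letters GGGCGG, and the TATA box with the letters TATAAA), and capitals in Col4a1 and Col4a2 mark the 78 bases that both windows share, read on opposite strands.
Col1a2, chr6:4505368-4505667, + strand: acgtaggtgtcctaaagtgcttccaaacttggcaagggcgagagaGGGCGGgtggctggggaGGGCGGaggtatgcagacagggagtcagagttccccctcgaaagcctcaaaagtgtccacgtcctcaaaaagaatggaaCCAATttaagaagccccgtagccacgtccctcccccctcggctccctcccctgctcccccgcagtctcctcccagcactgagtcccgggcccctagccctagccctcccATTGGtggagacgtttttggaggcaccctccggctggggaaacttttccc
Col3a1, chr1:45311288-45311587, + strand: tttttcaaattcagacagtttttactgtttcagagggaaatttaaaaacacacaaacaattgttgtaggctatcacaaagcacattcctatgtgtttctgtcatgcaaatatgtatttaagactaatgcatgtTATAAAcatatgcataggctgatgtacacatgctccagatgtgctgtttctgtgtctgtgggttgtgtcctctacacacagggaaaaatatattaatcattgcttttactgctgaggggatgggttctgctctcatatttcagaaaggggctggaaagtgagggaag
Col4a1, chr8:11312777-11313076, - strand: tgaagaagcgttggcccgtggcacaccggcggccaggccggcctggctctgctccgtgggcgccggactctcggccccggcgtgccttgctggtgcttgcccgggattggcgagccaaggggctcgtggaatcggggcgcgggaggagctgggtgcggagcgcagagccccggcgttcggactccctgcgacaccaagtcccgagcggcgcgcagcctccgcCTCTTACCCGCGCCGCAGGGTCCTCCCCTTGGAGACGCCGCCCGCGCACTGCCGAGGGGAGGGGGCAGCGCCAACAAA
Col4a2, chr8:11312555-11312854, + strand: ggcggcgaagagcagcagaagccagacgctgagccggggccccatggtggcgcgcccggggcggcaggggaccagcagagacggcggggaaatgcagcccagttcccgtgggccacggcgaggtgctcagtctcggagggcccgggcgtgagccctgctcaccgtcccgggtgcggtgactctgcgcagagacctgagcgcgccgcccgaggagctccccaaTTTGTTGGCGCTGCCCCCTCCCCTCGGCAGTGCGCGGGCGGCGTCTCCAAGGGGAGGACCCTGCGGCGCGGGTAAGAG
The starts of Col4a1 and Col4a2 lie 21 bases apart on opposite strands, each reading across the other, and those of Col4a5 and Col4a6 lie 1343 bases apart. The GC content was 37.7% in the Col3a1 window and 61%, 74% and 73.7% in those of Col1a2, Col4a1 and Col4a2, beside a median of 52.7% over all promoter windows. GGGCGG stood in 22 of the 36 collagen windows (61.1%) and in 35.7% of all promoters. CCAAT stood in 13 of 36 (36.1%, and 37.4% of all promoters), and TATAAA in 5 of 36 (13.9%, and 13.6%), none of them in a type IV window. These are matches of letters, not sites of binding.

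Among the fibrillar collagens, 9 of 11 were tested, and their log2 fold changes ran from -0.40 to 0.35 around a median of 0.04, where the median of all genes tested was 0.02. Col1a1, the major chain of type I collagen, had signals of 1276, 1160 and 850 in the WT arrays and 810, 1567 and 1242 in the Glut1-TG arrays. The Glut1-TG arrays held both the lowest and the highest value, so the groups overlapped fully. This gave a log2 fold change of 0.11 with a 95% confidence interval of -0.42 to 0.63 (standard error 0.23, limma adjusted p = 0.90). Col1a2, the second chain of type I, had 2630, 2757 and 2352 in WT and 2422, 2786 and 2723 in Glut1-TG hearts. The difference of 0.04 (log2) had the narrowest interval of any collagen, -0.19 to 0.26 (standard error 0.10, adjusted p = 0.93). Col3a1, the chain of type III collagen, had 5229, 3535 and 3504 in WT and 4188, 5036 and 3867 in Glut1-TG hearts, and a single WT array was the highest of all. Its log2 fold change was 0.11 (interval -0.25 to 0.47, adjusted p = 0.84).

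Type V collagen, which is built into type I fibrils and limits their width, gave 1 value of the opposite sign among its chains. Col5a1 had 1116 ± 76.6 (SD, n = 3) in WT and 1152 ± 183 (SD, n = 3) in Glut1-TG hearts, which gave a log2 fold change of 0.04 (interval -0.27 to 0.34, adjusted p = 0.95). Col5a2 had 841 ± 126 and 781 ± 152, a log2 fold change of -0.11 (interval -0.51 to 0.28, adjusted p = 0.86). Col5a3 had 621, 497 and 374 in WT and 635, 708 and 529 in Glut1-TG hearts. Its groups overlapped in part, and its log2 fold change of 0.35 did not pass (interval -0.12 to 0.82, adjusted p = 0.58). Col27a1, a fibrillar chain known from cartilage, had 801, 874 and 683 in WT and 402, 722 and 736 in Glut1-TG hearts. The low mean of the Glut1-TG group came with a single array, replicate 1, and the log2 fold change was -0.39 (interval -0.91 to 0.13, adjusted p = 0.57). Col11a1 and Col11a2, chains of the cartilage collagen type XI, had log2 fold changes of -0.03 and -0.40 (adjusted p = 0.98 and 0.71).

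**Figure D1:**
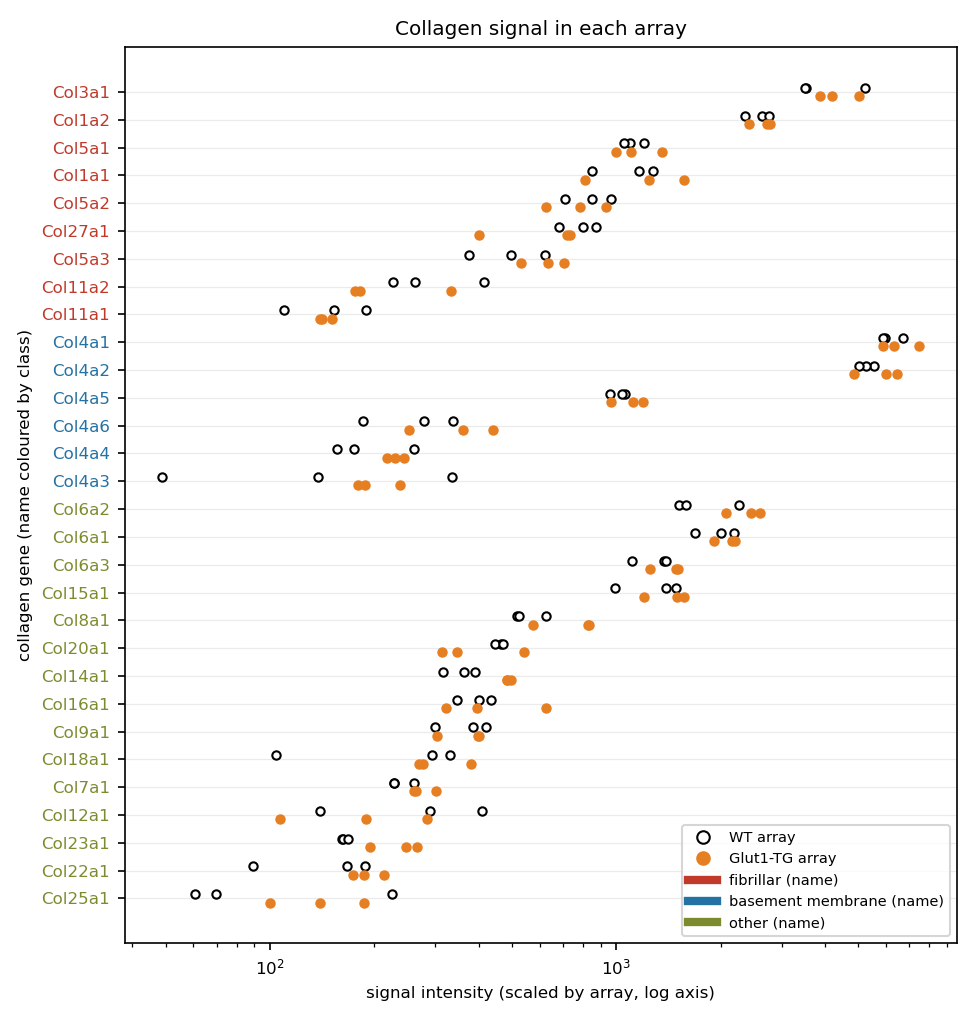
Signal of the 30 tested collagen genes (rows, grouped by class) in each array on a log axis, with open circles for the 3 WT and orange circles for the 3 Glut1-TG arrays. The groups overlap in 27 genes; all Glut1-TG arrays lie above all WT arrays in Col14a1, Col23a1 and Col7a1.

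All 6 chains of type IV collagen were tested and none passed limma. All 6 had a log2 fold change above 0, as did 53.0% of all genes tested. Their median was 0.19, and it was 0.11 with a stricter filter on low signal that kept 4 chains. Col4a1, which forms the common basement membrane network with Col4a2, had signals of 6750, 5982 and 5877 in WT and 6348, 7496 and 5894 in Glut1-TG hearts. The lowest value of each group nearly coincided, and the log2 fold change was 0.08 (standard error 0.10, interval -0.15 to 0.31, adjusted p = 0.82). Col4a2 had 5541, 5261 and 5017 in WT and 6457, 6017 and 4863 in Glut1-TG hearts. Glut1-TG replicate 3 was the lowest of the 6 arrays and the other Glut1-TG arrays were the highest, and the log2 fold change was 0.12 (standard error 0.11, interval -0.12 to 0.37, adjusted p = 0.72). These genes, which share the promoter region shown above, thus had intervals that both span 0.

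Col4a5, a chain best known from kidney basement membrane, had 956, 1057 and 1036 in WT and 968, 1120 and 1197 in Glut1-TG hearts (log2 fold change 0.10, interval -0.17 to 0.38, adjusted p = 0.80). Its neighbour Col4a6 had 185, 338 and 278 in WT and 253, 361 and 439 in Glut1-TG hearts. The difference of 0.40 (log2) had an interval of -0.28 to 1.08 (adjusted p = 0.66). Col4a3 and Col4a4, the partners of Col4a5 in the glomerulus, had 0.61 and 0.26. The WT signals of Col4a3 were 336, 48.8 and 137, and the log2 fold change turned to -0.10 without WT replicate 2, the lowest array.

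Of the 25 other collagens, 15 were tested, 12 had a log2 fold change above 0 and 3 below, and the median was 0.21. Type VI collagen forms beaded filaments close to the basement membrane. Col6a1 had 2193, 1999 and 1692 in WT and 2160, 2198 and 1918 in Glut1-TG hearts, which gave a log2 fold change of 0.10 (interval -0.16 to 0.36, adjusted p = 0.80). Col6a3 had 1377, 1393 and 1110 in WT and 1509, 1247 and 1491 in Glut1-TG hearts, which gave a log2 fold change of 0.13 (interval -0.16 to 0.42, adjusted p = 0.75). Both overlapped between groups. Col6a2 had 2258, 1512 and 1592 in WT and 2457, 2078 and 2594 in Glut1-TG hearts. WT replicate 1 lay within the Glut1-TG range, and the log2 fold change of 0.43 had the lowest unadjusted limma value of all collagens (standard error 0.16, interval 0.08 to 0.78, adjusted p = 0.35). The probe set is of a kind (its name ends in _x_at) that can read related transcripts. A further Col6a2 probe set, at a geometric mean signal of 1481, had a log2 fold change of 0.06.

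Col14a1, a collagen that binds to the surface of fibrils, had 315, 364 and 389 in WT and 495, 484 and 483 in Glut1-TG hearts. All Glut1-TG arrays lay above all WT arrays, as they did in 3 of the 30 tested collagens (the reverse in 0), and in 8.67% of all genes tested, with 8.77% the other way round and 17.4% in either direction. The log2 fold change was 0.46 (standard error 0.18, interval 0.06 to 0.85, limma adjusted p = 0.38). A further Col14a1 probe set, of geometric mean signal 187, had 109, 174 and 151 in WT and 317, 189 and 247 in Glut1-TG hearts, which gave a log2 fold change of 0.79 (adjusted p = 0.49 over all probe sets). Col14a1 was the single collagen with an unadjusted limma p under 0.05 whose further probe set above the filter also had one.

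Col8a1, a short-chain network collagen of vessel walls, had 517, 625 and 522 in WT and 575, 832 and 829 in Glut1-TG hearts. Glut1-TG replicate 1 lay among the WT arrays, and the log2 fold change was 0.41 (standard error 0.18, interval 0.0046 to 0.82, limma adjusted p = 0.44). A further Col8a1 probe set, of geometric mean signal 401, had -0.04. Col23a1, a collagen that spans the cell membrane, had 161, 162 and 168 in WT and 266, 248 and 195 in Glut1-TG hearts, without overlap. Its log2 fold change of 0.51 passed the study's thresholds with Col14a1 and did not pass limma (interval -0.14 to 1.17, adjusted p = 0.55). Col7a1, the collagen of the anchoring fibrils of skin, had 228, 260 and 228 in WT and 261, 302 and 264 in Glut1-TG hearts (log2 fold change 0.21, adjusted p = 0.79). Its groups did not overlap, by less than 1 unit of signal.

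Col15a1 and Col18a1 encode the multiplexins, collagens of the basement membrane zone whose end fragments are known to act on vessels. Col15a1 had 1388, 1484 and 993 in WT and 1574, 1205 and 1495 in Glut1-TG hearts (log2 fold change 0.16, interval -0.22 to 0.53, adjusted p = 0.77). Col18a1 had 104, 293 and 331 in WT and 381, 277 and 269 in Glut1-TG hearts. A single WT array was low, and the log2 fold change of 0.50 (adjusted p = 0.70) turned to -0.03 without that array, WT replicate 1. Of the remaining fibril-associated collagens, Col12a1, Col20a1 and Col9a1 had -0.51, -0.24 and 0.00, and Col16a1 and Col22a1 had 0.14 and 0.43 (adjusted p = 0.72 to 1.00 for the 5 genes). Col25a1, a collagen of the cell membrane known from neurons, had 0.48 (adjusted p = 0.81), and its mean log2 signal in WT hearts lay under the filter, so it was tested through its Glut1-TG level.

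**Figure D2:**
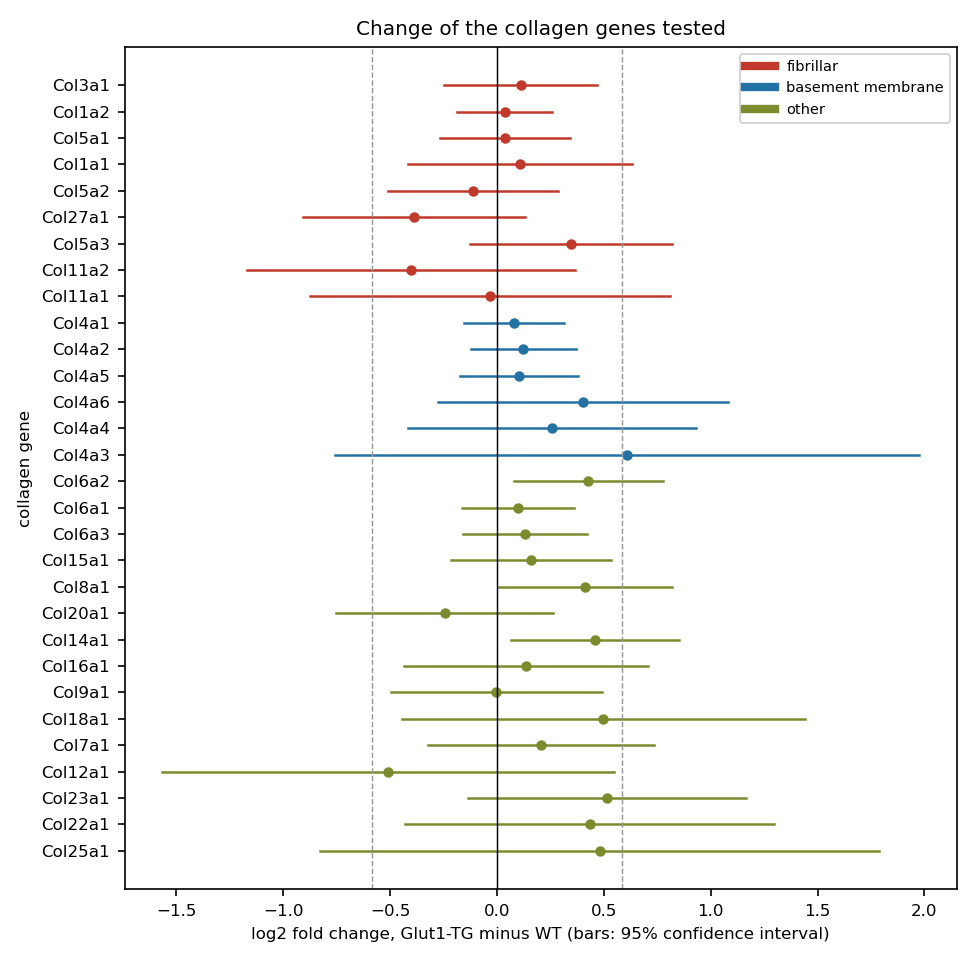
The horizontal axis gives the log2 fold change of the 30 tested collagen genes (Glut1-TG over WT) as points with bars for the 95% confidence interval from limma and dashed lines at a 1.5-fold change. The intervals of Col6a2, Col14a1 and Col8a1 lie above 0, no gene passed after adjustment, and 11 intervals lie between the dashed lines.

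The intervals give the size of difference that the 6 arrays could resolve. In 11 of the 30 tested collagens (36.7%) the 95% confidence interval lay within a 1.5-fold change in either direction, as it did in 44.5% of all genes tested. These were Col1a2, Col3a1, Col5a1 and Col5a2 of the fibrillar class, Col4a1, Col4a2 and Col4a5 of the basement membrane class, and Col6a1, Col6a3, Col9a1 and Col15a1. In 22 of the 30 the interval lay within a 2-fold change, beside 9910 of all 13178 genes tested. The intervals of the other collagens reached beyond it.

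By class, the fibrillar median of 0.04 was below those of the basement membrane (0.19) and the other collagens (0.21). Above 0 lay 5 of 9, 6 of 6 and 12 of 15 genes. This order depended on the processing: as means of probe sets, with fewer genes, the medians were 0.15, 0.13 and 0.16. Together 23 of the 30 tested collagens (76.7%) lay above 0, beside 53.0% of all genes tested. Sorted by mean signal, in bands chosen after the values were seen, the 11 collagens over a signal of 1000 all lay above 0 with a median of 0.11, where 40.1% of all genes in that band did, with a median of -0.04. These 11 genes share the arrays, their standard errors ran from 0.10 to 0.23, and the interval of each but Col6a2 spans 0. In the band of 300 to 1000, 4 of 8 lay above 0, and under 300 it was 8 of 11, with 56.2% and 62.4% of all genes. When each array was centred on its median signal, which moved the median of all genes by -0.10, Col1a2, Col5a1, Col4a1 and Col6a1 lay below 0. No difference between the classes was tested.

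**Figure D3:**
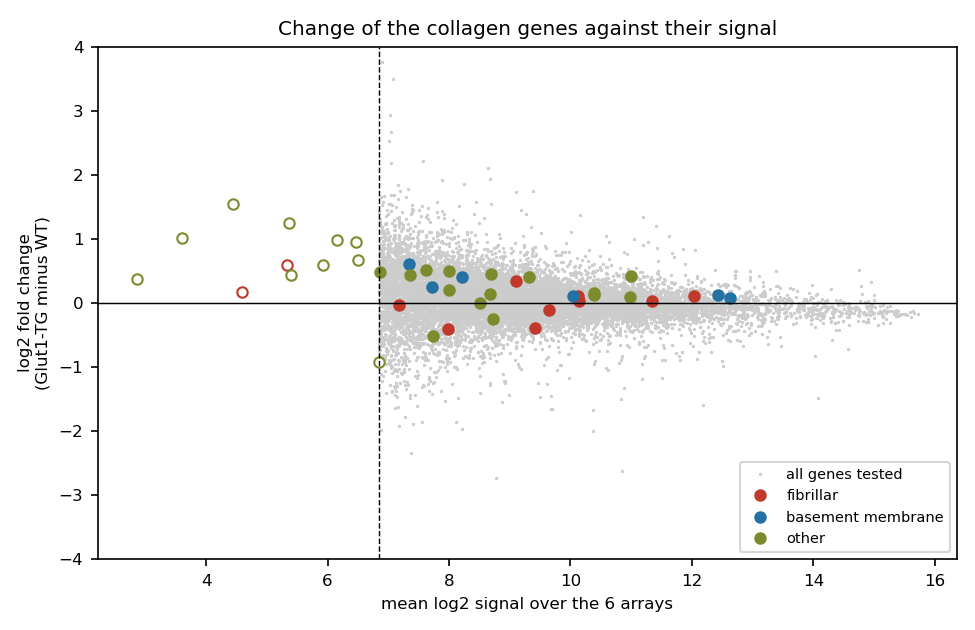
Log2 fold change (vertical axis) against the mean log2 signal over the 6 arrays, with grey points for all 13178 genes tested, filled circles for the 30 tested collagens by class and open circles for the 12 under the filter (dashed line). Collagens of high signal lie close to 0, and 11 of the 12 open circles lie above 0.

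The 12 collagens under the filter were not tested. They were Col2a1 and Col24a1 of the fibrillar class and Col6a4, Col6a5, Col8a2, Col9a2, Col9a3, Col10a1, Col13a1, Col17a1, Col19a1 and Col26a1. Their signals ran from 4.0 to 182 in single arrays. In 11 of the 12 the Glut1-TG mean was above the WT mean, and the median log2 difference was 0.63, beside 62.6% and 0.23 over the 5015 genes under the filter. Glut1-TG replicate 1 gave the highest value in 6 of the 12. Col10a1, the collagen of hypertrophic cartilage, had 29.9, 25.8 and 25.0 in WT and 182, 35.5 and 39.8 in Glut1-TG hearts. Col26a1 stood just under the filter, with 179, 150 and 146 in WT and 44.6, 158 and 82.3 in Glut1-TG hearts, and Col25a1 just above it.

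The rule found 82 probe sets for the 42 genes, of which 38 lay under the filter. In 13 genes 14 further probe sets lay above it, and 8 of these had the sign of the probe set used and 6 the opposite sign. Of the 44 collagen probe sets above the filter, 0 passed limma over all probe sets. The further probe sets of Col1a1, Col1a2 and Col3a1 had log2 fold changes of 0.27, -0.02 and 0.11, beside 0.11, 0.04 and 0.11 in those used. That of Col4a1 had 0.19 beside 0.08, and that of Col4a5 had -0.01 beside 0.10. The widest gaps were in Col18a1 (0.50 and -0.11) and Col5a2 (-0.11 and 0.48).

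**Figure D4:**
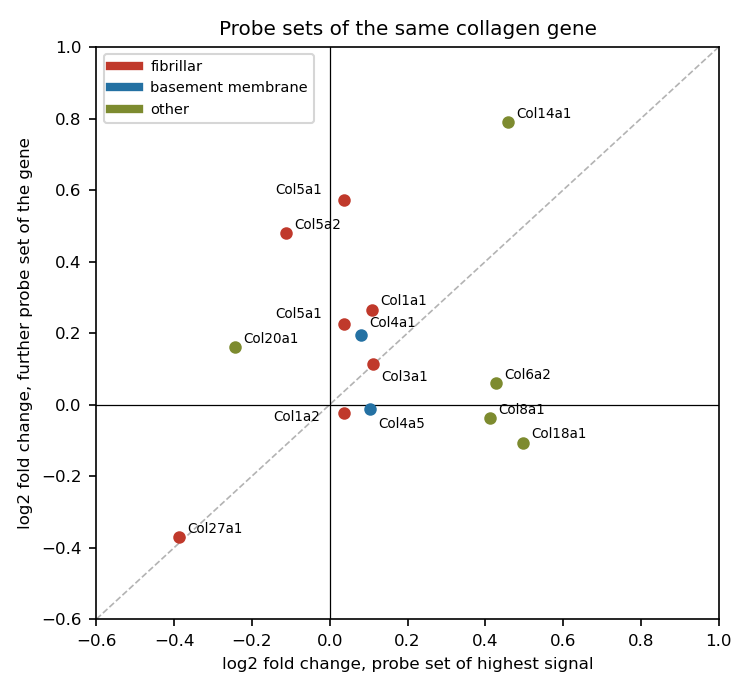
Log2 fold change of the 14 further probe sets above the filter (vertical axis) against that of the probe set used for the same gene (horizontal axis), coloured by class, with a dashed line where both are equal. Col14a1 lies above 0 on both axes, while the further probe sets of Col6a2, Col8a1 and Col18a1 lie near or below 0.

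The collagens differed among arrays of the same group. Of the 9 tested fibrillar collagens, 1 lay above the WT mean in WT replicate 3 and 8 in WT replicate 1, beside 48.7% and 55.6% of all genes tested. WT replicate 3 was the lowest WT array in 8 of the 9. The median difference from the WT mean over the fibrillar collagens was 0.21, 0.03 and -0.20 in WT replicates 1, 2 and 3, and -0.09, 0.11 and 0.08 in the Glut1-TG arrays. The spread among WT hearts was thus wider than the difference between the groups. For type IV the medians were 0.10, -0.03 and -0.02 in WT and 0.15, 0.31 and 0.21 in Glut1-TG hearts. For the other collagens they were 0.13, 0.04 and -0.06, and 0.30, 0.24 and 0.21. In both of these classes every Glut1-TG array lay above every WT array, a description of medians over chosen genes and not a test.

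Markers of fibroblasts and of other cell types were read on the same arrays. Of 10 fibroblast markers 9 were tested, 6 lay above and 3 below 0, 0 passed limma and the median was 0.07. Their summed signal was 47077 to 52708 in WT and 40774 to 58053 in Glut1-TG hearts. Glut1-TG replicate 1 was low, with 1 of 9 above the group mean. In this array 3 of 9 fibrillar collagens, 1 of 10 macrophage markers and 49.7% of all genes tested lay above it. WT replicate 3 was the lowest WT array in 3 of 9 fibroblast markers and in 8 of 9 fibrillar collagens. The fibroblast markers Lum, a small proteoglycan of collagen fibrils, and Dpt, a matrix protein, had log2 fold changes of 0.29 and 0.35 (adjusted p = 0.59 for both), and Pdgfrl had 0.47 (0.55). Of 8 markers of activated fibroblasts 7 were tested and 0 passed limma. Their median was 0.33, with 6 above 0 and 1 below (Cthrc1, -0.14), beside 53.0% of all genes tested above 0. At an unadjusted limma p under 0.05, 3 were higher and 0 lower, beside 5.47% and 5.81% of all genes. The 3 were Ddah1 (0.59, adjusted p = 0.13), Comp (0.94, adjusted p = 0.39) and Postn, the periostin of healing hearts (0.31, adjusted p = 0.40).
The 10 endothelial markers had a median of -0.02, with Kdr, a VEGF receptor, at -0.44 (adjusted p = 0.23) and Cdh5 and Tie1 at 0.22 and 0.21 (0.53 for both). Those of pericytes and smooth muscle had -0.11, with Abcc9 at -0.31, Pdgfrb at -0.28 and Acta2 at 0.33 (adjusted p = 0.19, 0.38 and 0.50). The 14 cardiomyocyte markers all lay below 0, with a median of -0.18, summed signals of 529244 to 639331 in WT and 499910 to 527967 in Glut1-TG hearts, and 0 past limma. Above 0 lay 53.0% of all genes tested and 40.1% of those over a signal of 1000, where the median was -0.04. Each of the cardiomyocyte markers had a mean signal of 13431 or more. Lowest in p among them were Mybpc3 at -0.29, Ryr2 at -0.24 and Tnnt2 at -0.22 (adjusted p = 0.29, 0.37 and 0.40). Macrophage markers had a median of 0.08, with 7 of 10 above 0 and 3 below. Lowest in p were Csf1r and Adgre1 (both 0.31) and C1qc (0.23), while Lyz2 and Mrc1 had -0.10 and -0.03. Epicardial markers had a median of 0.16, with 4 of 6 tested above 0 (Krt8 0.42, Upk1b 1.45, Krt18 -0.75). Schwann cell markers had a median of 0.25, with 5 of 6 tested above 0 (Gfra3 0.39, Pmp22 0.18, Cnp 0.32). The 5 tested cartilage and valve markers had 0.79, with Matn3 at 1.42 (adjusted p = 0.42) and Sox9, which is the median gene, at 0.79, and the only tested red blood cell marker, Alas2, had 0.16. Of the markers named, Matn3, Sox9 and Upk1b lay under the filter by their mean log2 signal in WT hearts. They were tested through their Glut1-TG level, and Krt18 the other way round. S100b, which counts in the Schwann cell median, was also tested through its Glut1-TG level. In each of these lists 0 passed limma. At an unadjusted p under 0.05, 4 of 14 cardiomyocyte, 2 of 9 pericyte and smooth muscle and 1 of 10 endothelial markers were lower. By the same rule 2 of 5 cartilage and valve markers (Comp and Matn3) were higher. Among all genes tested 5.81% were lower and 5.47% higher. The cardiomyocyte markers moved together by array: in all 14, WT replicate 1 was the highest and WT replicate 2 the lowest WT array. The lowest mean signal of a fibroblast marker was 34.4 (Cd248). The part of these cell types in the collagen values was not tested.

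**Figure D5:**
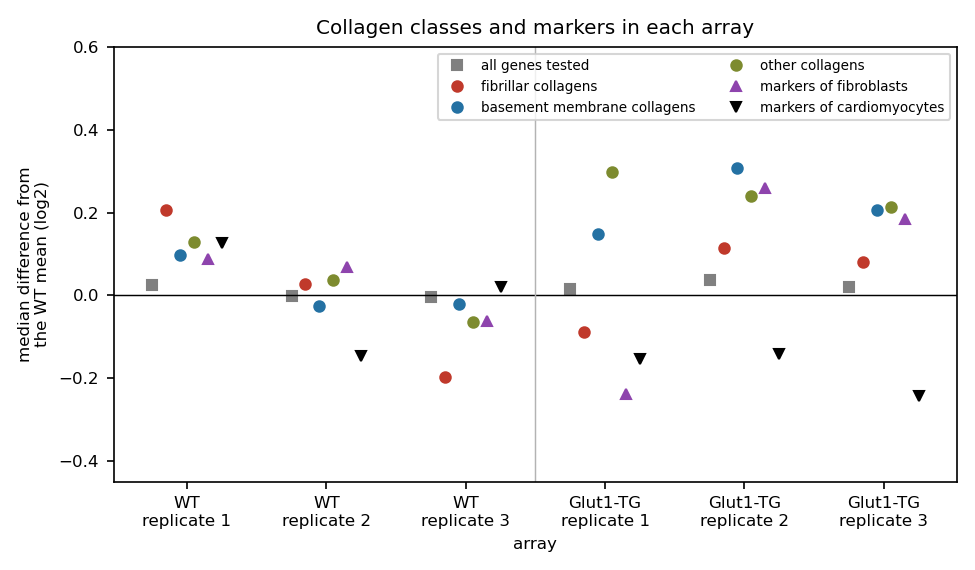
Median log2 difference from the WT mean (vertical axis) in each of the 6 arrays (horizontal axis), for the 3 classes of tested collagens (circles), fibroblast and cardiomyocyte markers (triangles) and all genes tested (squares). The fibrillar medians run from -0.20 to 0.21 within WT arrays and from -0.09 to 0.11 in Glut1-TG arrays.

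Among genes that act on collagen, 1 passed limma. Of 18 tested genes of hydroxylation, folding and secretion, 1 rose and 0 fell, beside 0.258% and 0.599% of all genes tested. Plod2, the lysyl hydroxylase that prepares the ends of collagen chains for stable cross-links, had 1225, 1284 and 1113 in WT and 1760, 1863 and 1901 in Glut1-TG hearts. All Glut1-TG arrays lay above all WT arrays, with a log2 fold change of 0.61 (limma adjusted p = 0.031, standard error 0.10). Leaving out a WT array ended the call each time (adjusted p = 0.092 to 0.15), as did leaving out Glut1-TG replicate 2 (0.089) or 3 (0.11). It also ended as the mean of its probe sets (0.069), when arrays were centred on their median (0.28), with the replicate block (0.072) and by eBayes without trend (0.22). P4ha2, a subunit of prolyl 4-hydroxylase, had -0.20 and P3h1, a prolyl 3-hydroxylase, had 0.38 (adjusted p = 0.53 and 0.61). The median of the list was 0.06.

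Of 10 tested genes of procollagen processing and cross-linking 0 passed, with a median of 0.05. Lox, the lysyl oxidase that starts cross-linking, had 233, 217 and 219 in WT and 418, 350 and 264 in Glut1-TG hearts, without overlap, and a log2 fold change of 0.60 (adjusted p = 0.42, interval 0.04 to 1.16). Its relative Loxl3 had 0.48 (adjusted p = 0.46), and Tgm2, a transglutaminase, had -0.32 (adjusted p = 0.41). Of 16 interstitial matrix partners 0 passed and 14 lay above 0, with a median of 0.27. At an unadjusted p under 0.05, 5 were higher and 0 lower. The 5 include Postn, which was also counted among the activated fibroblast markers. Dcn, Lum and Fn1 stand in this list and in the fibroblast lists too. Among all genes tested 53.0% lay above 0, and 5.47% were higher and 5.81% lower at that unadjusted p. Fbln2, a fibulin that binds matrix proteins, had 1078, 1155 and 1125 in WT and 1490, 1665 and 1589 in Glut1-TG hearts (log2 fold change 0.50, adjusted p = 0.067), but -0.24 as the mean of its probe sets. Fmod, a proteoglycan that binds collagen fibrils, had 207, 49.9 and 66.6 in WT and 305, 485 and 465 in Glut1-TG hearts (2.21, adjusted p = 0.11). Its mean log2 signal in WT hearts lay under the filter, so it was tested through its Glut1-TG level, and it counts among the 5 above. Its pass without WT replicate 1 (limma adjusted p = 0.028) came with leaving out the highest WT array and is no support for a difference. Prelp, a proteoglycan that anchors basement membranes, had 0.49 (adjusted p = 0.24) and passed without Glut1-TG replicate 1 (0.027).

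Of 12 basement membrane partners 0 passed, and their median was 0.05. Lama4, the laminin chain of vessel basement membranes, had 1433, 1326 and 1233 in WT and 793, 1018 and 1068 in Glut1-TG hearts, without overlap (log2 fold change -0.48, adjusted p = 0.22), while Lama3 and Lamb3, chains of epithelial laminin, had 0.99 and 0.44 (adjusted p = 0.37 and 0.41). Of 12 genes of collagen degradation and its inhibitors 0 passed and the median was 0.07. Timp1 and Timp4, inhibitors of metalloproteinases, had 0.95 and 0.38 (adjusted p = 0.46 and 0.48), and Mmp14, a membrane metalloproteinase, had -0.27 (0.49). Of 9 collagen receptors 0 passed, 7 lay above 0 and 2 below, and the median was 0.32, beside 53.0% of all genes tested above 0. Itgb1, the beta 1 integrin chain shared by the collagen-binding integrins, had 0.19, Itga2 had 0.89 and Itga10 had 0.45 (adjusted p = 0.41, 0.43 and 0.59), with Itgb1 at -0.21 as the mean of its probe sets.

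As a check of the groups, Slc2a1, the mouse Glut1 gene, had 527, 409 and 533 in WT and 851, 753 and 757 in Glut1-TG hearts, which gave a log2 fold change of 0.69 (adjusted p = 0.11 from limma). Its other 2 probe sets had -1.19 and -2.30, with -0.93 as the mean of all 3, and whether any of them reads the human transgene was not tested. The median signal over all probe sets was 213 in Glut1-TG replicate 1 and 171 to 187 in the other arrays. Arrays of a group correlated at 0.93 to 0.97 over the genes tested.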

How the data were processed

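Left ventricles of 3 WT and 3 Glut1-TG mice were profiled on an Affymetrix mouse array. The authors processed the scans with GCOS (version not given in the sources used here), and the deposited unit is a linear signal intensity. In the values, the mean of every array is 500 once 2% is trimmed from either end. No detection calls were used. Precision is limited by the number of arrays and by the signal, as an array has no read depth. The median standard error of the tested collagens was 0.38 under a signal of 300 and 0.13 over 1000.

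Of 45101 probe sets 64 controls were left out, and values under 1 (48 in all) were set to 1 before log2. Of the 45037 others, 34945 had 1 gene symbol, 932 several and 9160 none in the platform annotation, and only the first kind was used. The 40% of probe sets with the lowest mean log2 signal were left out, and 1 probe set per gene was kept. Glut1-TG was compared with WT over 13178 genes with limma 3.58.1 in R 4.3.3 (lmFit, eBayes with an intensity trend), with Benjamini-Hochberg adjustment over all of them and a threshold of 0.05. The methods' t-test was run on the same log2 values. The fit was tested on simulated data.

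Members, gene lists and tests were chosen with earlier results of these data known. Every collagen is accounted for; those with an unadjusted p under 0.05, those whose groups do not overlap and the main chains of the heart are given in full, and from each further list up to 3 genes of lowest unadjusted p, and Slc2a1, are named. Of the collagens listed by class, Col6a6, Col21a1 and Col28a1 were not analysed here. The alternatives were quantile normalization, centring on the array median, an offset of 50, no filter, a strict filter, the mean of probe sets, leaving out each array, eBayes with no trend, a block on the replicate number, counting Col15a1 and Col18a1 as basement membrane, the t-test, the study's thresholds and unadjusted p. Centring on cardiomyocyte markers was added after the data were seen.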

Additional observations from a re-analysis of the deposited data

How the results depend on the processing

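The count of collagens past the test was 0 in each direction in every alternative that adjusts p, among them each array left out, no filter with all 42 genes, and centring on cardiomyocyte markers, a setting chosen after seeing the data. It was 2 higher at the study's thresholds and 3 higher at an unadjusted limma p, where Col14a1 and Col23a1, and Col6a2, Col14a1 and Col8a1, respectively, passed. The deviations of same-numbered arrays correlated at 0.08, -0.03 and 0.05, and those of differently numbered arrays at -0.11 to 0.06. These values show no pairing by number but cannot exclude one. With the number as a block (replicate block) 0 collagens rose and 0 fell.

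Centring on the array median moved the median of the basement membrane class to 0.090 and that of the other collagens to 0.11, and centring on cardiomyocyte markers, which moved the median of all genes by 0.18, gave 0.37 and 0.38. Without a filter the other collagens had 0.43. Leaving out single arrays gave -0.03 to 0.10 for the fibrillar, 0.11 to 0.23 for the basement membrane and 0.15 to 0.32 for the other collagens, the highest without Glut1-TG replicate 2. Counting Col15a1 and Col18a1 with the basement membrane gave 0.21.

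Of the 30 tested collagens, 18 kept their sign in every setting that gave them a value, though the strict filter and the mean of probe sets left out some of them. Centred on the array median, Col4a1 had -0.020, Col1a2 -0.065, Col5a1 -0.064 and Col6a1 -0.0018. Centred on cardiomyocyte markers, Col5a2 had 0.062, Col11a1 0.14 and Col9a1 0.17. As means of probe sets, Col1a2 had -0.11 and Col5a2 0.18. With single arrays left out, the ranges crossed 0 for Col4a1 (-0.017 to 0.16), Col4a3 (-0.10 to 1.29), Col1a1 (-0.11 to 0.37), Col1a2 (-0.029 to 0.097), Col5a1 (-0.087 to 0.13), Col5a2 (-0.25 to 0.036), Col11a1 (-0.25 to 0.15), Col6a1 (-0.0039 to 0.18), Col16a1 (-0.14 to 0.35), Col9a1 (-0.14 to 0.13), Col15a1 (-0.020 to 0.27) and Col18a1 (-0.030 to 0.80). Of other genes, the mean of probe sets was -0.24 for Fbln2, -0.21 for Itgb1, -0.21 for Acta2, -0.15 for Cnp and -0.93 for Slc2a1, and Alas2 had -0.16 to 0.42 with single arrays left out. The cause of these changes was not tested.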
